A study of Mus musculus with 20 samples.

Results

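Matrix proteases and their inhibitors were examined in subcutaneous LLC1 tumors. The genes were chosen by name alone: every matrix metalloproteinase (MMP), ADAMTS protease, tissue inhibitor of metalloproteinases (TIMP) and serpin with a total of at least 100 counts over all tumors was a member. This gave 57 members among 35226 genes, of which 30 were proteases (17 MMPs and 13 ADAMTSs) and 27 carried an inhibitor family name (3 TIMPs and 24 serpins). Another 43 genes with matching symbols fell below the minimum, with Timp4 (92 counts), Serpina3h (89) and Adamts17 (84) just outside it and Serpinb1b (116), Serpind1 (187) and Serpinb10 (251) just inside. A filter on low counts left 56 members in the tests, all but Serpinb1b.

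MMPs are zinc proteases that cut collagens, proteoglycans and other matrix proteins, and ADAMTSs are secreted relatives that process procollagens and cleave large proteoglycans. TIMPs block MMPs at the active site, whereas most serpins trap serine proteases. Among these are the plasminogen activators that start the plasmin cascade upstream of several MMPs. In tumors these genes are known for matrix remodeling and are transcribed by cancer cells, fibroblasts, macrophages and neutrophils alike.

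The study asked whether KW6002 alters the response of tumors to cisplatin. KW6002 (istradefylline) is an antagonist of the adenosine receptor encoded by Adora2a, and cisplatin is a platinum drug that damages DNA. LLC1, a mouse Lewis lung carcinoma line, was injected with Matrigel under the skin of male C57Bl6/J mice 8 to 10 weeks old, and mice were assigned at random once tumors reached 100 mm3. Poly(A) RNA was sequenced from 20 tumors: 5 from mice given vehicle, 5 given KW6002, 5 given cisplatin and 5 given both drugs (cotreatment). All groups, vehicle included, thus carried the same implanted line in the same immunocompetent host strain. The dose and schedule for this tumor model are not given in the sources used here. Libraries held 28371364 to 40965731 gene counts. Levels are given as CPM, counts scaled to the size of each library. Differences are log2 fold changes with their standard errors (SE) from edgeR's quasi-likelihood test, and a gene passed at a Benjamini-Hochberg adjusted p below 0.05 over 16665 genes with a log2 fold change of at least 0.32 in size.

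A tumor RNA library pools all its cells, so fewer cells of a type and less RNA per cell cannot be told apart. Of the lung epithelial markers, Sftpc and Scgb1a1 had at most 3 counts in every tumor, as did 5 of 7 epidermal markers. The lung epithelial list, which also holds Krt8, Krt18 and Vim, summed to 3265 to 5253 CPM. With Sftpc and Scgb1a1 this low, the sum is not read as a measure of lung epithelium. Of the 4 genes of this list tested, Krt8 rose with cisplatin and with cotreatment and 3 passed in neither. Fibroblast markers summed to between 8643 and 14436 CPM and macrophage markers to between 2320.1 and 4414 CPM. Beside 4.57% of all genes lowered by cisplatin and 10.4% by cotreatment, endothelial markers were lower in 8 of 8 and 6 of 8 genes, mast cell markers in 6 of 6 and 3 of 6, neutrophil markers in 2 of 6 and 4 of 6, and fibroblast markers in 3 of 10 and 3 of 10, with 1 fibroblast marker higher with cotreatment. The library codes in the labels fall into an earlier and a later run, with 1 vehicle, 2 KW6002, 2 cisplatin and 3 cotreatment tumors in the earlier one. The vehicle tumor of the earlier run, tumor 1, also has a label that differs in form from those of the other vehicle tumors.

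Cisplatin lowered a block of MMP genes that lie next to each other on chromosome 9. Among the counted genes, 9 MMP genes lie within 427 kb there (GRCm38, chr9:7272514-7699585), and 8 of them were members. From Mmp13 through Mmp12, Mmp1b, Mmp3 and Mmp1a to Mmp10, 6 consecutive genes all fell with cisplatin. By family they are collagenase genes, whose products cut fibrillar collagen (Mmp13, Mmp1a and Mmp1b), stromelysins, which cut proteoglycans and other matrix proteins (Mmp3 and Mmp10), and the macrophage elastase Mmp12. The annotation lists Mmp1a as a polymorphic pseudogene, so its RNA need not give a protein in this strain. The last members of the row, Mmp8 and Mmp27, did not pass, and Mmp7 had 1 count in all. The promoters of these 8 neighboring genes of the same family are shown because they differ in whether they hold a short word. The word TGACTCA, read on either strand, is bound by AP-1 transcription factors, and it is in capitals. Each line runs from 100 bases before the RefSeq start to 10 bases after it (GRCm38.p6), in the direction of the gene.
Mmp13, chr9:7272414-7272523, plus strand: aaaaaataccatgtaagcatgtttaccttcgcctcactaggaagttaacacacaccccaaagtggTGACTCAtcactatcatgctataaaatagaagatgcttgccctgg
Mmp12, chr9:7347274-7347383, plus strand: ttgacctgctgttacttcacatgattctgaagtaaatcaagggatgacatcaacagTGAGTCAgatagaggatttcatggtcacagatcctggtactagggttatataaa
Mmp1b, chr9:7388017-7388126, minus strand: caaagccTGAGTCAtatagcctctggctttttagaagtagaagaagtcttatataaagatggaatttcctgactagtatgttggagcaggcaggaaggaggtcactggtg
Mmp3, chr9:7445722-7445831, plus strand: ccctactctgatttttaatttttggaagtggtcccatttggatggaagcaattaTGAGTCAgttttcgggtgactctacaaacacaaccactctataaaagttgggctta
Mmp1a, chr9:7464041-7464150, plus strand: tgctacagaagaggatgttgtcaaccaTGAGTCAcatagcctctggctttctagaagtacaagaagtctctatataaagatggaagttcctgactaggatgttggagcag
Mmp10, chr9:7502242-7502351, plus strand: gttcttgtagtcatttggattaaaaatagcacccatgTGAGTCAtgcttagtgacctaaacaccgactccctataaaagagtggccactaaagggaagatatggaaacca
Mmp8, chr9:7558329-7558438, plus strand: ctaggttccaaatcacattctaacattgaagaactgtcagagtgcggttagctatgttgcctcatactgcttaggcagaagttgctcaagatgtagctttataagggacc
Mmp27, chr9:7571296-7571405, plus strand: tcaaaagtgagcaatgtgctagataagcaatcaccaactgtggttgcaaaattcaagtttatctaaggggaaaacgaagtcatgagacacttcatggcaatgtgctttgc

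The word was present for all 6 genes that fell, with its first base 35 bases before the start in Mmp13, 44 in Mmp12, 93 in Mmp1b, 46 in Mmp3, 73 in Mmp1a and 63 in Mmp10. It was absent from the 300 bases examined for Mmp8 and Mmp27. Mmp12 has a second RefSeq start further upstream, near the annotated gene start (chr9:7344381), and its 300 bases did not hold the word. For Mmp12 the word is thus counted at a start that lies inside the annotated gene. Among all 27025 genes with a promoter in the RefSeq table, 5.95% held it in the same length of sequence. Among the 43 members with an entry, 8 did, the other two being Serpinb7, which rose with cisplatin, and Serpinb8. Of the 9 members with an entry that fell with cisplatin, 6 held it and Mmp15, Serpinb9 and Serpinh1 did not. Of the 11 with an entry that fell with cotreatment 5 held it, and Mmp1a, which holds it, was not among them. The 6 genes are neighbors of the same family, and the windows of Mmp1a and Mmp1b are near copies of each other. Their matches are therefore not independent observations, and the shares above cannot link the word to the fall. The match is a description of the letters in these windows, and binding was not measured.

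**Figure D1:**
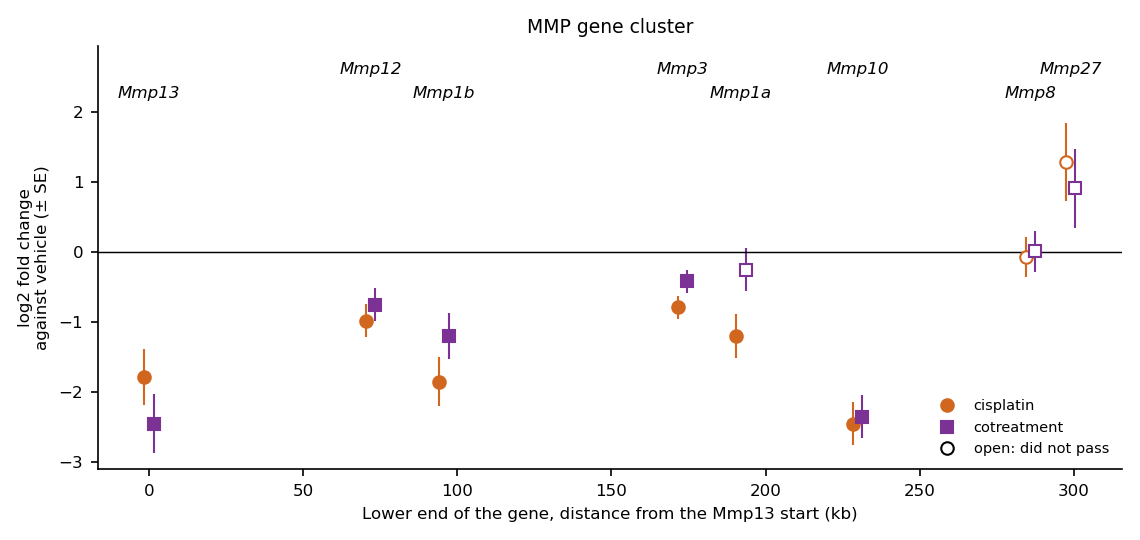
Log2 fold change against vehicle (± SE) of the 8 members of the MMP cluster, plotted by the distance of each gene's lower end from the Mmp13 start in kb; circles are cisplatin and squares cotreatment, and open symbols did not pass. The 6 genes from 0 to 229.8 kb all lie below 0, and Mmp8 and Mmp27 at 286 and 299 kb have open symbols in both comparisons.

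As compared with vehicle, cisplatin lowered 9 of 30 proteases and raised none, against 4.57% of all genes lowered and 6.01% raised. Without the fold limit or any adjustment, 3 proteases were higher and 10 lower at p below 0.05. At that p, 5143 of all 16665 genes differed in either direction. DESeq2 also raised 0 proteases. Of the inhibitors, 2 of 26 rose and 2 fell. The tumors of both groups did not overlap in 10 of 56 members, against 10.4% of all genes. The median log2 fold change was -0.06 over proteases and 0.16 over inhibitors, beside 0.000 over all genes tested.

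Mmp10 showed the largest fall. Vehicle tumors had 18.4, 19.8, 13.0, 13.3 and 11.7 CPM and cisplatin tumors 3.62, 2.64, 2.72, 1.84 and 3.07 CPM. The groups did not overlap, and the level was 5.48-fold lower (log2 fold change -2.45 ± 0.31, adjusted p = 5.02e-05).

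Mmp13 had 22.0, 17.6, 33.1, 19.6 and 17.6 CPM with vehicle, and 3.59, 4.37, 3.54, 6.84 and 13.5 CPM with cisplatin. The groups did not overlap, with the cisplatin tumors 4 and 5 the highest of their group (log2 fold change -1.78 ± 0.40, adjusted p = 0.00661).

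Mmp3, the most abundant protease, had 1009.9, 1093, 989.8, 1007 and 575 CPM with vehicle and 519, 592, 487, 512 and 596 CPM with cisplatin. Vehicle tumor 5 stood far below the other vehicle tumors and alone reached into the cisplatin range (log2 fold change -0.79 ± 0.16, adjusted p = 0.00232). Mmp1a had 2.83, 4.96, 2.02, 2.12 and 1.5 CPM with vehicle and 1.32, 1.83, 1.36, 0.613 and 0.660 CPM with cisplatin. These groups overlapped (log2 fold change -1.20 ± 0.32, adjusted p = 0.0142), and the call was lost without vehicle tumor 2 (-0.86) and without cisplatin tumors 4 and 5 (-0.82, adjusted p = 0.104).

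Mmp12 fell from 249.8 ± 49.1 to 127 ± 29.5 CPM (SD, n = 5; log2 fold change -0.98 ± 0.24, adjusted p = 0.0101), and without cisplatin tumors 4 and 5 it missed the threshold (-0.86, adjusted p = 0.0541). Of 10 macrophage markers, 0 fell and 1 rose with cisplatin, against 4.57% and 6.01% of all genes, and with cotreatment 2 fell and 2 rose. Their part in the level of Mmp12 was not tested. Mmp1b ran from 1.04 to 3.62 CPM with vehicle and from 0.460 to 0.877 CPM with cisplatin, which did not overlap (log2 fold change -1.85 ± 0.35, adjusted p = 0.00121). Mmp1a and Mmp1b are related genes, only uniquely aligned reads were counted, and reads that match both would be missing from either. Exons of Mmp1b and Mmp12 overlap over 157 bases on opposite strands.

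Outside the cluster, cisplatin lowered Adamts4, Adamts7 and Mmp15. Adamts4, an aggrecanase, had 21.1, 22.5, 25.6, 21.0 and 24.4 CPM with vehicle and 11.7, 8.81, 10.6, 11.4 and 10.7 CPM with cisplatin. The ranges were far apart, and the level was 2.15-fold lower (log2 fold change -1.11 ± 0.13, adjusted p = 1.66e-05). Adamts7, which degrades cartilage oligomeric matrix protein, fell without overlap (log2 fold change -0.92 ± 0.20, adjusted p = 0.00410). The membrane-type Mmp15 was at only 2.46 ± 0.645 CPM with vehicle and fell less (-0.56 ± 0.18, adjusted p = 0.0356), a call lost without cisplatin tumors 4 and 5 (-0.53, adjusted p = 0.0967). It was also lost without vehicle tumor 3 or 5 or cisplatin tumor 2, 3 or 5, with -0.62 to -0.38 over all 20 fits that left out a tumor. Mmp14, the abundant membrane-type collagenase, was at 565 ± 34.4 CPM with vehicle and 477 ± 31.6 CPM with cisplatin. Its log2 fold change of -0.24 ± 0.06 (adjusted p = 0.00604) was smaller than the limit of 0.32.

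Serpine2 rose most with cisplatin. It encodes protease nexin-1, an inhibitor of thrombin, urokinase and plasmin. Vehicle tumors had 15.9, 21.9, 15.1, 14.9 and 17.6 CPM and cisplatin tumors 59.1, 76.0, 78.4, 49.0 and 49.5 CPM. Every cisplatin tumor exceeded every vehicle tumor, and the level was 3.65-fold higher (log2 fold change 1.87 ± 0.15, adjusted p = 2.79e-07). Serpinb7, an intracellular clade B serpin, rose from 0.796 ± 0.205 to 1.39 ± 0.127 CPM without overlap (0.80 ± 0.26, adjusted p = 0.0365). This call was lost without vehicle tumor 1, 3, 4 or 5 or cisplatin tumor 2, 3 or 4, with 0.70 to 0.91 over the 20 fits. It was also lost within the later library codes (0.72, adjusted p = 0.0743) and without cisplatin tumors 4 and 5 (0.79, adjusted p = 0.0862).

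Serpinb9, an inhibitor of granzyme B, fell with cisplatin. It had 37.4, 38.3, 32, 43.3 and 33.4 CPM with vehicle and 28.5, 26.5, 25.4, 24.1 and 22.0 CPM with cisplatin, which did not overlap (log2 fold change -0.54 ± 0.09, adjusted p = 0.000370). Serpinh1, the collagen chaperone HSP47 and not a protease inhibitor, had 605 ± 93.7 CPM with vehicle (SD, n = 5), the lowest tumor at 499.7, and 461, 379, 484, 560.0 and 509 CPM with cisplatin. These groups overlapped (-0.34 ± 0.11, adjusted p = 0.0322), and the call was lost without vehicle tumor 1, 3 or 5 or cisplatin tumor 1, 2 or 3, with -0.40 to -0.24 over the 20 fits, and within the later library codes (-0.21, adjusted p = 0.187).

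**Figure D2:**
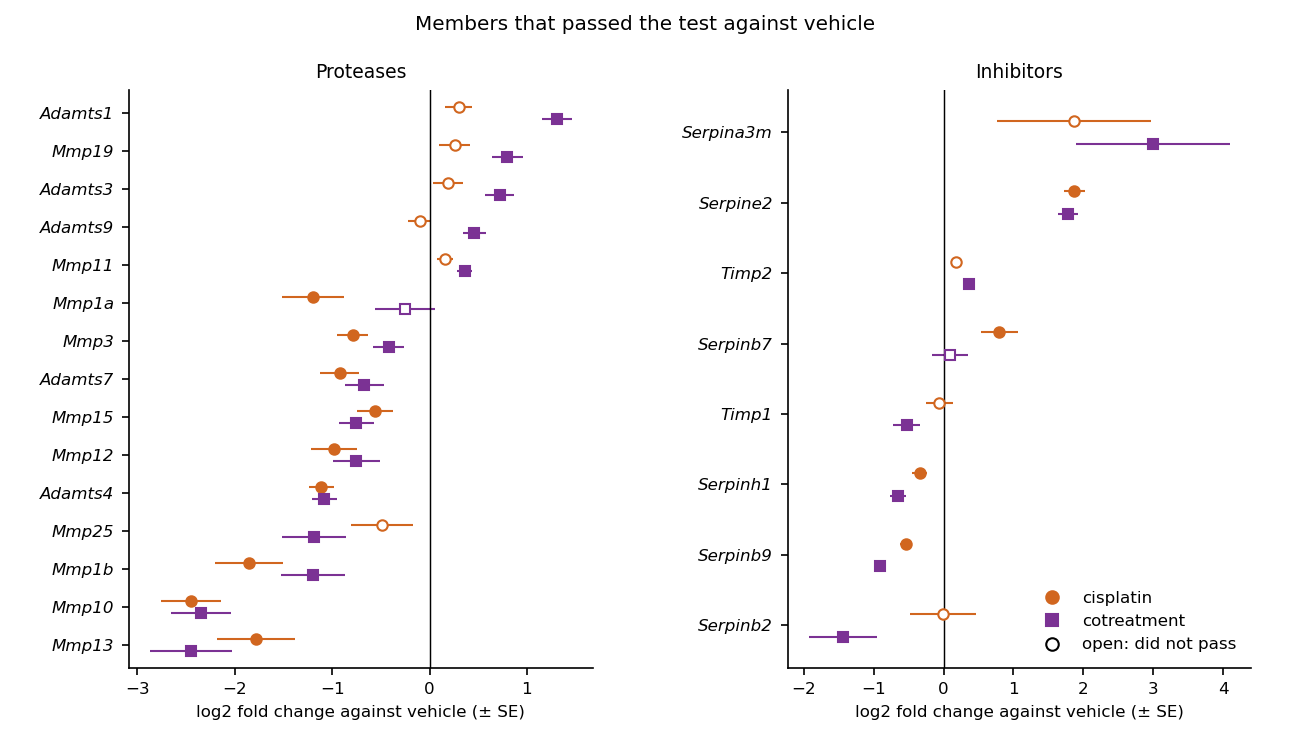
Log2 fold change against vehicle (± SE) of the 15 proteases and 8 inhibitors that passed in cisplatin or cotreatment tumors; circles are cisplatin, squares cotreatment and open symbols did not pass. Filled circles of the proteases all lie below 0, whereas 5 proteases have filled squares above 0.

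With cotreatment, proteases passed in both directions. As compared with vehicle, 9 of 30 proteases fell and 5 rose, against 10.4% of all genes lowered and 13.1% raised, so that the share that rose was near that of all genes, and of 26 inhibitors 3 rose and 4 fell. The groups did not overlap in 16 of 56 members, against 24.7% of all genes. Cisplatin alone and cotreatment share their vehicle controls, so their values are given side by side. Of the 9 proteases that fell with cisplatin, 8 also fell with cotreatment, the exception being Mmp1a (log2 fold change -0.25 ± 0.31, adjusted p = 0.565), and Mmp25 was the addition.

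Mmp10 had 4.50, 1.18, 3.21, 4.18 and 1.75 CPM in cotreated tumors (log2 fold change -2.35 ± 0.31, adjusted p = 1.60e-05). Mmp13 had 3.38, 2.07, 4.47, 5.26 and 5.05 CPM (-2.45 ± 0.42, adjusted p = 0.000249), and Adamts4 had 14.9, 8.35, 11.9, 8.78 and 10.2 CPM (-1.08 ± 0.13, adjusted p = 3.65e-06). All 3 genes lay below every vehicle tumor.

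Mmp3 had 826, 554, 727, 679 and 705 CPM with cotreatment, a range that the low vehicle tumor 5 entered (-0.42 ± 0.16, adjusted p = 0.0434). The call was kept in 6 of 20 fits that left out a tumor, those without vehicle tumor 5, KW6002 tumor 1, 3 or 5, cisplatin tumor 2 or cotreatment tumor 1, with -0.54 to -0.34 over the 20 fits. Against vehicle, Mmp12 (-0.75 ± 0.24, adjusted p = 0.0201), Mmp1b (-1.20 ± 0.33, adjusted p = 0.00784), Adamts7 (-0.67 ± 0.20, adjusted p = 0.0134) and Mmp15 (-0.75 ± 0.18, adjusted p = 0.00248) fell as well, Adamts7 not without vehicle tumor 3 (-0.45) and Mmp12 not without vehicle tumor 3 or cotreatment tumor 2 (-0.60). Within the later library codes the calls of Mmp12 (-0.79, adjusted p = 0.0877) and Mmp3 (-0.38, adjusted p = 0.269) were lost, as was that of Mmp3 without cisplatin tumors 4 and 5 (-0.41, adjusted p = 0.0650).

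Mmp25, a leukocyte membrane-type MMP, was low throughout, at 0.976 ± 0.358 CPM with vehicle and 0.423 ± 0.158 CPM with cotreatment (-1.19 ± 0.33, adjusted p = 0.00781; within the later library codes -1.05, adjusted p = 0.129). Neutrophil markers were lower with cotreatment as well, with 4 of the 6 tested falling. Their summed level ran from 47.9 to 123 CPM with vehicle and from 16.5 to 35.6 CPM with cotreatment. Elane had at most 3 counts in every tumor. With cisplatin alone, where Mmp25 did not pass, 2 of these 6 markers fell. Their part in the fall of Mmp25 was not tested. The collagenase Mmp8, itself on that marker list, was at 3.31 ± 0.708 and 3.34 ± 1.46 CPM.

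The proteases that rose with cotreatment were Adamts1, Mmp19, Adamts3, Adamts9 and Mmp11. Adamts1, which cleaves aggrecan and versican, had 218, 268, 239, 226 and 292 CPM with vehicle, 221, 235, 240.3, 211 and 229.8 CPM with KW6002, and 334, 310.5, 284, 291 and 308 CPM with cisplatin. In cotreated tumors it reached 510.2, 803, 750.5, 371 and 638 CPM, above all 15 other tumors though more widely spread. It was 2.47-fold above vehicle (log2 fold change 1.31 ± 0.15, adjusted p = 2.13e-06) and 2.01-fold above cisplatin alone (1.01 ± 0.14, adjusted p = 0.00105).

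For Adamts1, and for no other member in the fit to all 20 tumors, the effect of KW6002 passed the test of a difference between tumors with and without cisplatin. That difference, the interaction of both drugs, was 1.14 ± 0.20 on the log2 scale (adjusted p = 0.0391), and 0.0660% of all genes passed this test, 0.0360% with a positive and 0.0300% with a negative difference. That share depends on the fit: 6 and 5 genes passed with edgeR, 145 and 113 with DESeq2, 140 and 89 without cotreatment tumor 4, where Adamts9 passed too, and 0 without vehicle tumor 2 and several other tumors. At an unadjusted p below 0.05 the difference was positive for 6 of 30 proteases and negative for 3. In either direction, 2034 of all 16665 genes reached that p. Among 26 inhibitors 0 passed with edgeR or DESeq2. At that unadjusted p the difference was positive for 1 inhibitor and negative for 3, beside the same 2034 of 16665 genes. The interaction of Adamts1 passed in 6 of 20 fits that left out a tumor, those without vehicle tumor 1, KW6002 tumor 5, cisplatin tumor 1 or 2 or cotreatment tumor 1 or 4. It ran from 1.02 to 1.27 over these fits, was 1.11 without cisplatin tumors 4 and 5 (adjusted p = 0.0550) and was 0.95 within the later library codes (adjusted p = 0.602).

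Mmp19, a secreted MMP of several cell types, had 94.6, 106, 99.1, 101 and 103 CPM with vehicle, 98.2, 94.8, 105, 175 and 129.8 CPM with cisplatin and 169, 169, 166, 145 and 224 CPM with cotreatment. All cotreated tumors exceeded all vehicle tumors (log2 fold change 0.80 ± 0.16, adjusted p = 0.000657), whereas cisplatin tumor 4 lay above 4 of them. Exons of Mmp19 overlap those of Tmem198b on the opposite strand over 22.3% of their length.

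Adamts3, a procollagen N-proteinase, had 3.63, 3.80, 2.94, 3.47 and 3.42 CPM with vehicle, 5.11, 4.19, 2.99, 4.05 and 3.42 CPM with cisplatin and 5.82, 6.14, 5.56, 5.86 and 4.93 CPM with cotreatment. Only cisplatin tumor 1 reached the cotreated range (against vehicle 0.72 ± 0.15, adjusted p = 0.000880). Adamts9, another proteoglycan-cleaving member, ran from 20.9 to 26.1 CPM with vehicle and had 24.0, 21.9, 20.8, 22.0 and 21.3 CPM with cisplatin. With cotreatment it had 26.2, 38.9, 37.5, 23.4 and 35.8 CPM, so that 2 cotreated tumors stayed near the others (0.46 ± 0.12, adjusted p = 0.00463), and within the later library codes the call was lost (0.32, adjusted p = 0.172). Mmp11 (stromelysin 3) rose least, from 41.6 ± 3.75 to 53.4 ± 5.90 CPM (0.36 ± 0.08, adjusted p = 0.000938), and was 0.31 without cotreatment tumor 5, under the fold limit.

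**Figure D3:**
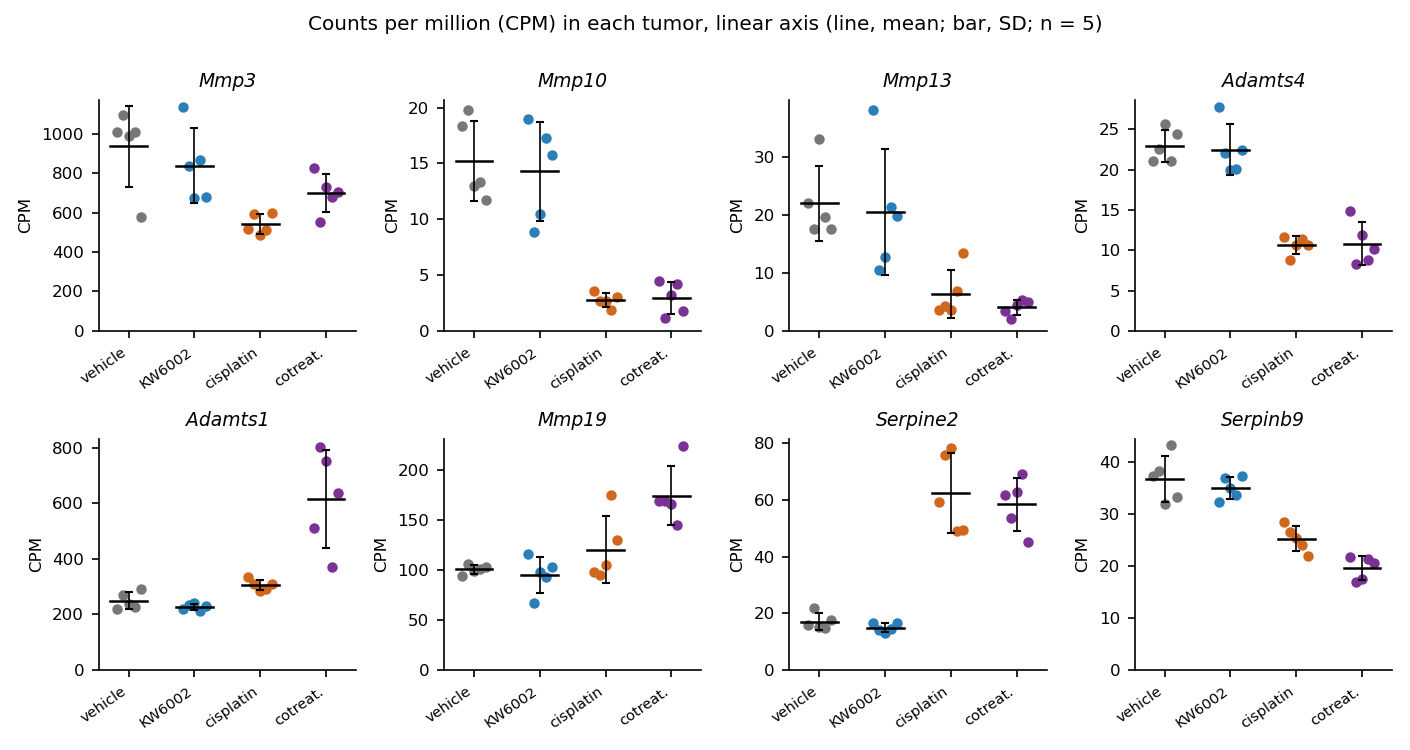
CPM in each tumor for 8 members on linear axes that start at 0, with the mean (line) and SD (bar) of the 5 tumors per group. Mmp10, Mmp13 and Adamts4 are low in both groups that received cisplatin, Serpine2 is high in both, and Adamts1 and Mmp19 have their highest group means with cotreatment.

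Among inhibitors, Serpine2 was again above every vehicle tumor with cotreatment, at 61.9, 53.6, 62.9, 69.1 and 45.0 CPM (against vehicle 1.78 ± 0.15, adjusted p = 9.50e-08; against cisplatin -0.09 ± 0.14, adjusted p = 0.726). Timp2, which inhibits MMPs and helps Mmp14 activate Mmp2, had 626, 668, 636, 652 and 690.4 CPM with vehicle, 706 to 769 CPM with cisplatin and 843, 870.5, 880.0, 789 and 849 CPM with cotreatment. The 3 groups did not overlap and stepped upward in this order. The rise with cotreatment passed (0.37 ± 0.05, adjusted p = 3.12e-05), while that with cisplatin (0.18 ± 0.05, adjusted p = 0.0312) was under the fold limit.

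Timp1, which inhibits most soluble MMPs, had 79.9, 52.3, 54.2, 60.6 and 61.6 CPM with vehicle, 40.1, 47.2, 47.9, 87.3 and 74.1 CPM with cisplatin and 41.3, 38.5, 34.8, 51.4 and 47.9 CPM with cotreatment. Every cotreated tumor was below every vehicle tumor (-0.53 ± 0.19, adjusted p = 0.0387), but within the later library codes the difference was -0.18 (adjusted p = 0.571). The call was lost without vehicle tumor 1, 4 or 5, KW6002 tumor 3 or 4, or cotreatment tumor 1, 2 or 3, with -0.59 to -0.40 over the 20 fits. Timp3, a matrix-bound TIMP, did not pass in any comparison, with means of 11.2, 11, 13.0 and 13.4 CPM in vehicle, KW6002, cisplatin and cotreatment tumors.

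Serpinh1 and Serpinb9 also fell with cotreatment. Serpinh1 had 367, 353, 364, 441 and 403 CPM, all below vehicle (-0.65 ± 0.11, adjusted p = 8.68e-05), and overlapped the cisplatin tumors, from which the difference did not pass (-0.31 ± 0.11, adjusted p = 0.0803). Serpinb9 had 21.8, 16.9, 17.6, 21.4 and 20.7 CPM, below every vehicle and every cisplatin tumor (against vehicle -0.91 ± 0.09, adjusted p = 4.42e-07). Serpinf1, the abundant noninhibitory serpin PEDF, did not pass in any comparison, with group means between 425 and 451 CPM.

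Serpinb2 (plasminogen activator inhibitor 2) had 42.6, 14.8, 13.7, 19.8 and 14.9 CPM with vehicle and 6.31, 9.04, 6.24, 8.31 and 9.14 CPM with cotreatment. The groups did not overlap (-1.44 ± 0.49, adjusted p = 0.0309), but the call was lost without vehicle tumor 1 (-1.0), without cotreatment tumor 1, 2, 3 or 4 and within the later library codes (-0.84, adjusted p = 0.361). Its exons share 291 bases with those of Serpinb10 on the same strand. Serpina3m, of the antichymotrypsin-like Serpina3 family, had 0, 2.36, 0.163, 0 and 0.130 CPM with vehicle and 2.37, 4.77, 1.88, 2.42 and 9.30 CPM with cotreatment. Its log2 fold change of 3.0 ± 1.10 (adjusted p = 0.0431) rested on counts of 0 to 67 per vehicle tumor. It ran from 2.48 to 5.80 over the 20 fits that left out a tumor and was lost in 7 of them, those without vehicle tumor 1, 3, 4 or 5, KW6002 tumor 4 or cotreatment tumor 2 or 5. Within the later library codes it was lost as well (3.21, adjusted p = 0.121). Reads that match several genes of this family were not counted. Vehicle tumor 2, at 2.36 CPM, also had 295 summed CPM of adipocyte markers, against 21.4 to 33.8 CPM in the other vehicle tumors. Cotreated tumor 5, at 9.30 CPM, had 27.7 CPM of these markers. Their part in the level of Serpina3m was not tested.

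Against cisplatin alone, cotreatment raised 4 of 30 proteases and lowered 1 of 26 inhibitors, beside 2.29% of all genes raised and 1.71% lowered. The 4 proteases were Adamts1, Adamts9 (0.56 ± 0.12, adjusted p = 0.00889), Mmp19 (0.53 ± 0.16, adjusted p = 0.0475) and Adamts3 (0.52 ± 0.15, adjusted p = 0.0397), and the inhibitor was Serpinb9 (-0.36 ± 0.09, adjusted p = 0.0210). Serpinb9 was -0.18 within the later library codes (adjusted p = 0.514) and -0.54 within the earlier ones (adjusted p = 0.0463). The groups did not overlap in 6 of 56 members, Adamts1 and Serpinb9 among them, against 4.83% of all genes. When a tumor was left out, Mmp19 passed in 4 of 20 fits (0.43 to 0.71), those without KW6002 tumor 1 or 2, cisplatin tumor 4 or cotreatment tumor 4. Adamts3 was lost without cisplatin tumor 3, 4 or 5 or cotreatment tumor 1, 2 or 3 (0.44 to 0.63), and Serpinb9 without cisplatin tumor 1 or cotreatment tumor 2 or 3 (-0.41 to -0.31). Within the later library codes 0 proteases passed, while 1 of all 17222 genes tested there did, and within the earlier codes 0 passed, against 0.994% of all genes raised and 0.627% lowered. In these runs, later and earlier, Adamts1 was higher by 0.78 and 1.10 (adjusted p = 0.207 and 0.0619), Adamts9 by 0.47 and 0.58 (adjusted p = 0.297 and 0.127), Mmp19 by 0.44 and 0.81 (adjusted p = 0.386 and 0.163) and Adamts3 by 0.63 and 0.34 (adjusted p = 0.256 and 0.481). With the library code run as a term in the fit, Adamts3 was lost (0.50, adjusted p = 0.0512). It was also lost without cisplatin tumors 4 and 5 (0.47, adjusted p = 0.128).

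KW6002 alone changed 0 of 56 members, as it changed 0% of all genes (edgeR), and DESeq2 called 0 members. Its tumors were clear of the vehicle tumors in 0 members, against 0.342% of all genes. At an unadjusted p below 0.05, 1 protease was higher and 0 inhibitors differed, beside 339 of all 16665 genes in either direction. The member log2 fold changes ran from -0.59 to 0.67. In cotreatment as compared with KW6002, where 23.3% of all genes passed, 12 of 30 proteases and 9 of 26 inhibitors did. Members that passed only there were Mmp9 (gelatinase B), Serpinb10, Serpinb6b and Serpind1 (heparin cofactor II), all lower, and Serpinc1 (antithrombin), which was higher. Mmp9 had 39.7, 34.5, 21.1, 36.6 and 21.4 CPM with KW6002 and 12.7, 7.25, 16.4, 10.9 and 20.2 CPM with cotreatment, without overlap (-1.19 ± 0.35, adjusted p = 0.0147), as was the case for 16 of 56 members and 24.9% of all genes. It was -0.75 within the later library codes (adjusted p = 0.355) and -1.61 within the earlier ones (adjusted p = 0.0155). The summed neutrophil markers ran from 52.9 to 153 CPM with KW6002 and from 16.5 to 35.6 CPM with cotreatment. In this comparison 4 of 6 neutrophil, 6 of 10 T and NK cell, 5 of 6 mast cell and 6 of 8 endothelial markers were lower. Of macrophage and fibroblast markers 2 of 10 each were lower, and 1 and 2 were higher. Of all genes, 10.7% were lower and 12.6% higher. The part of these cell types in the differences was not tested. Against vehicle, at 18.5, 14.5, 33.4, 16.9 and 26.2 CPM, Mmp9 did not pass (-0.70 ± 0.35, adjusted p = 0.133). The log2 fold changes of the others against KW6002 were 1.05 ± 0.26 for Serpinc1 (adjusted p = 0.00312), -1.14 ± 0.31 for Serpind1 (adjusted p = 0.00662), -0.45 ± 0.14 for Serpinb6b (adjusted p = 0.0190) and -1.32 ± 0.47 for Serpinb10 (adjusted p = 0.0323). Serpinb10, Serpinc1 and Serpind1 had at most 45 counts in any tumor, and exons of Serpinc1 overlap those of Zbtb37 on the opposite strand over 34.4% of their length. Serpinb10 was lost without KW6002 tumor 1, 2 or 3 or cotreatment tumor 1 or 3 (-1.47 to -1.03 over the 20 fits), and Serpinb6b without KW6002 tumor 1 or 4 or cotreatment tumor 2 (-0.54 to -0.34). Within either run of library codes none of these 4 passed, with adjusted p from 0.0860 to 0.355. Serpinb10 was -0.84 within the later codes and -1.77 within the earlier ones. Like Mmp1a, it is listed in the annotation as a polymorphic pseudogene, so its RNA need not give a protein in this strain.

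Levels of different genes were compared per kb of exon. Mmp3 made up 62.1% of the summed protease level in vehicle tumors, at 519 ± 114 CPM per kb, followed by Mmp14 at 94.8 ± 5.78 and Adamts1 at 46.9 ± 5.83 CPM per kb. Among inhibitors, Serpinh1 (248 ± 38.4 CPM per kb), Serpinf1 (189 ± 12.8) and Timp2 (168 ± 6.59) led. With cotreatment Timp2 ranked first among inhibitors at 217 ± 9.08 CPM per kb, and Adamts1 second among proteases at 116 ± 33.3 CPM per kb.

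The inhibitor sum is by family name, and in vehicle tumors 29.8% of it was Serpinh1 and 22.7% Serpinf1, which do not inhibit proteases. Summed per kb, proteases stood to inhibitors in a ratio of 1.01 ± 0.144 with vehicle, 0.945 ± 0.105 with KW6002, 0.723 ± 0.10 with cisplatin and 0.949 ± 0.111 with cotreatment (SD, n = 5). The cisplatin tumors ran from 0.607 to 0.850 and overlapped vehicle tumors, which ran from 0.771 to 1.15. Cisplatin tumors 4 and 5 had the lowest ratios, 0.607 and 0.647, with inhibitor sums of 1081 and 1047 CPM per kb. Cisplatin tumors 1, 2 and 3 had ratios of 0.792, 0.850 and 0.720, with inhibitor sums of 713, 697 and 766 CPM per kb. Mmp3 was 62.1% of the protease sum with vehicle, 60.4% with KW6002, 49.4% with cisplatin and 50.6% with cotreatment. Without it the ratio was 0.381 ± 0.0154, 0.375 ± 0.0120, 0.362 ± 0.0239 and 0.468 ± 0.0588. The cotreated tumors ran from 0.371 to 0.520 and overlapped the vehicle tumors at 0.366 to 0.403. The protease sum without Mmp3 was 316 ± 20.9 CPM per kb with vehicle and 378 ± 47.9 with cotreatment, while Adamts1 alone went from 46.9 to 116 CPM per kb. These sums are descriptions and were not tested.

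**Figure D4:**
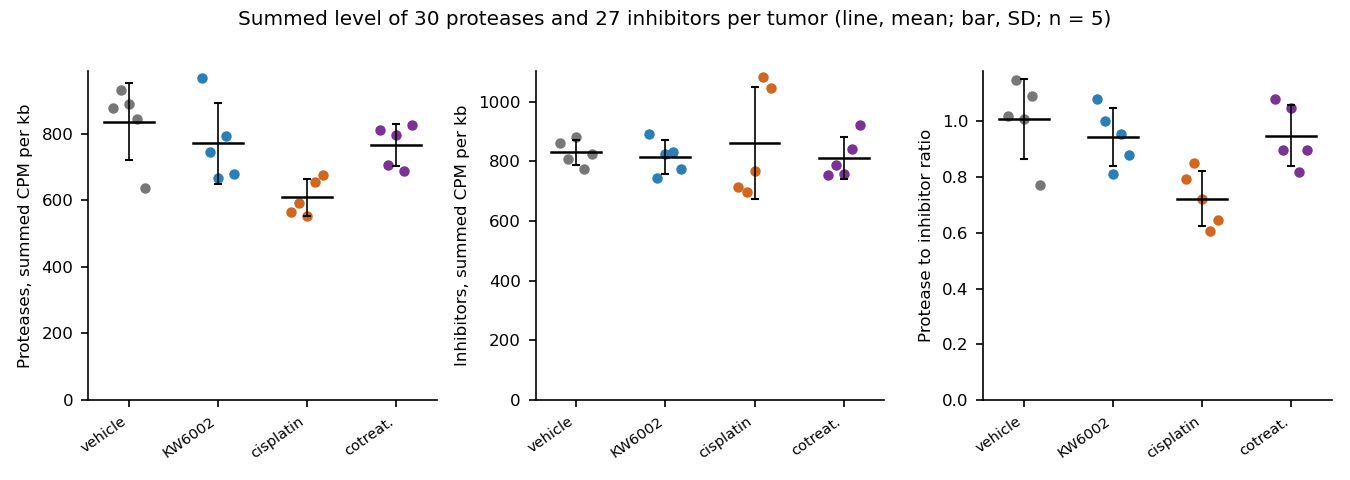
Summed CPM per kb of exon of all 30 proteases and all 27 inhibitors and their ratio in each tumor, on axes that start at 0, with the mean (line) and SD (bar) of the 5 tumors per group. The mean ratio is lowest with cisplatin, at 0.723, with tumors that overlap the other groups. Cisplatin tumors 4 and 5 have the lowest ratios and the highest inhibitor sums of their group.

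A set of members varied widely between the cisplatin tumors. In 20 of 56 members, cisplatin tumors 4 and 5 both lay above the other cisplatin tumors with a mean at least 2-fold higher, as did 5.18% of all genes. This set was picked from its values and describes these tumors. Mmp2 (gelatinase A) had 17.2, 30.2, 50.7, 219 and 179.6 CPM with cisplatin. It had 46.6, 28.7, 42, 23.5 and 40.1 CPM with vehicle and 50.1, 82.6, 39.5, 68.2 and 181 CPM with cotreatment. It did not pass (cisplatin 1.46 ± 0.63, adjusted p = 0.124, and cotreatment 1.22 ± 0.62, adjusted p = 0.141). Without cisplatin tumors 4 and 5 it passed with cotreatment against vehicle (1.23, adjusted p = 0.0456) and KW6002 (1.40, adjusted p = 0.0263). With DESeq2 it passed against KW6002 (1.40, adjusted p = 0.0410).

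Serping1, the complement C1 inhibitor, had 12.3, 13.5, 23.5, 156 and 159 CPM with cisplatin against 19.3 to 37.0 CPM with vehicle. Serpina3n, an acute phase serpin, had 17.2, 18.5, 39.1, 213 and 178 CPM against 7.87 to 71.5 CPM. Adamts5, an aggrecanase, had 4.02, 4.85, 7.32, 23.1 and 17.9 CPM against 3.22 to 8.23 CPM (0.95 ± 0.43, adjusted p = 0.145). In all 3, tumors 4 and 5 were above the vehicle range and tumors 1 and 2 within or below it.

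Within the cisplatin group, fibroblast markers were also highest in tumors 4 and 5, at 9867, 8643, 9753, 14436 and 12331 summed CPM in the 5 tumors. Across groups the levels did not go together. Vehicle tumors 3 and 5 had 12678 and 12970.3 summed CPM, above cisplatin tumor 5, while their Mmp2, given above, was far below it. Of the 10 fibroblast markers, 8 were higher in both cisplatin tumors 4 and 5 than in the other cisplatin tumors. This was so for 24.0% of all genes. It held for 5 of 6 neutrophil, 5 of 6 mast cell, 5 of 5 adipocyte and 7 of 10 T and NK cell markers tested. On the lung epithelial list it held for 3 of 4 genes tested. Of the other markers it held for 2 of 10 macrophage, 1 of 8 endothelial and 0 of 8 skeletal muscle genes. Their part in these differences was not tested. Tumors 3, 4 and 5 have later library codes.

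**Figure D5:**
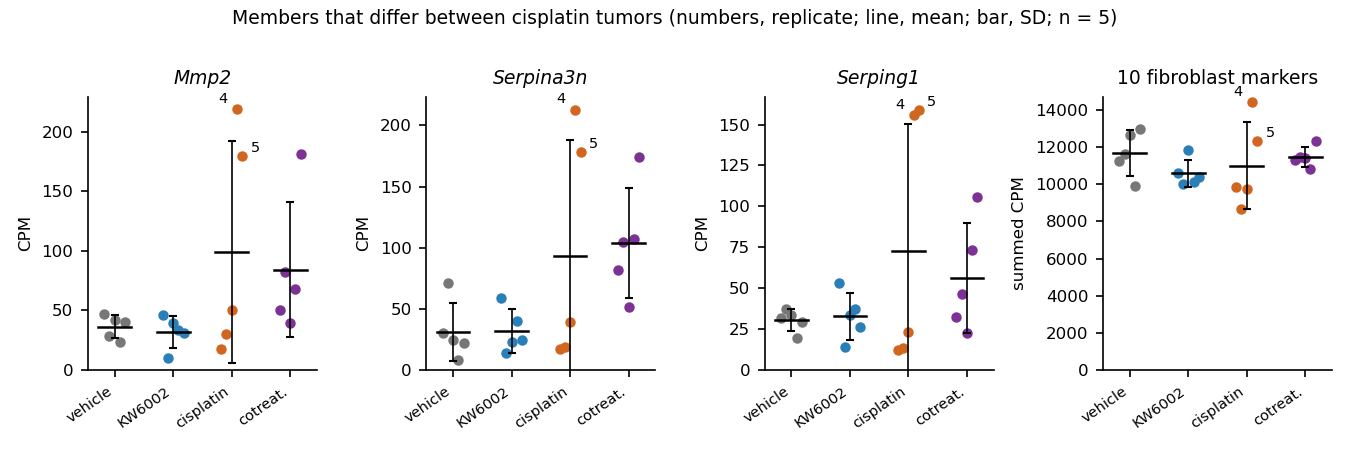
CPM of Mmp2, Serpina3n and Serping1 and the summed CPM of 10 fibroblast markers in each tumor, with the mean (line) and SD (bar, ending at 0 where it would go lower) of the 5 tumors per group; the numbers mark cisplatin tumors 4 and 5. In all 4 panels these tumors lie above the other cisplatin tumors.

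Without cisplatin tumors 4 and 5, cisplatin lowered 6 proteases and raised 0, against 4.43% of all genes lowered and 4.91% raised, and the proteases that remained were Adamts4, Adamts7, Mmp10, Mmp13, Mmp1b and Mmp3. The later library codes hold cisplatin tumors 3, 4 and 5, so a fit within them is no check apart from tumors 4 and 5. There, cisplatin lowered 9 proteases and raised 4, against 6.93% of all genes lowered and 9.0% raised. Among those raised were Mmp2 and Adamts5, both high in tumors 4 and 5. In these codes cotreatment lowered 6 and raised 5, against 5.34% and 7.48% of all genes. The earlier codes hold 1 vehicle tumor and give no such comparison.

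Other genes of the same pathways were given by list, to be read against the 10.6% of all genes that passed with cisplatin and the 23.5% with cotreatment. The lists are short, and nothing particular to a list is read from these counts. Of 6 tested genes of plasminogen activation, cisplatin lowered 1 and raised 1 and cotreatment lowered 2. Plau, which encodes urokinase, had 547, 487, 539, 493 and 506 CPM with vehicle, 317, 319.8, 381, 272 and 373 CPM with cisplatin and 283, 198, 238, 257 and 228 CPM with cotreatment. It fell in both (-0.63 ± 0.11, adjusted p = 0.000508, and -1.10 ± 0.11, adjusted p = 4.24e-07) and was lower with cotreatment than with cisplatin (-0.47 ± 0.11, adjusted p = 0.0140). Plat, which encodes tissue plasminogen activator, fell with cotreatment (-0.46 ± 0.12, adjusted p = 0.00546). S100a10, a plasminogen receptor subunit, rose with cisplatin (0.35 ± 0.12, adjusted p = 0.0480).

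Of 10 tested surface ADAM and astacin proteases, cisplatin lowered 2 and raised 1 and cotreatment lowered 4. The sheddase gene Adam17 fell in both (-0.45 ± 0.07, adjusted p = 0.000187, and -0.53 ± 0.07, adjusted p = 8.78e-06), as did the procollagen proteinase gene Tll1. Of 13 cathepsins, cisplatin lowered 2 and raised 1, and cotreatment lowered 1 and raised 2. Ctsc, the activator of granule serine proteases, was lower in both (-0.34 ± 0.11, adjusted p = 0.0380, and -0.80 ± 0.11, adjusted p = 1.60e-05). Of 19 other activators and inhibitors of matrix proteases, cisplatin raised 3 and lowered 1, and cotreatment raised 2 and lowered 3. The broad protease trap A2m rose most (3.67 ± 0.84, adjusted p = 0.00708) but had 0.744, 2.13, 2.48, 24.1 and 20.7 CPM with cisplatin, again highest in tumors 4 and 5. Of 8 tested serpin target proteases, only Htra3 passed against vehicle, higher with cisplatin (1.01 ± 0.25, adjusted p = 0.0102) and cotreatment (1.02 ± 0.25, adjusted p = 0.00384).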

How the data were processed

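The deposited values were raw read counts per Ensembl gene, which the authors made with STAR, mm10 and HTSeq 0.6.1p1 from poly(A) RNA (TruSeq Stranded, bcl2fastq 2.17.1.14), per the submitters' processing notes. The strand setting of the counting is not given in the sources used here, so reads where genes overlap on opposite strands may be lost or misassigned. Only uniquely aligned reads were counted, in union mode, per the study's methods. Symbols were attached to 35142 of 35226 genes, and coordinates and exon lengths came from GENCODE M21 (GRCm38). Groups came from the sample titles, and the labels do not tie each tumor to a mouse. The p-values thus set group differences against the spread between these tumors. No pair of tumors agreed within sampling noise.

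Counts were tested with edgeR 4.0.16 (R 4.3.3; TMM scaling, filterByExpr, robust quasi-likelihood, all 4 groups in 1 fit), p-values were adjusted over 16665 genes, and the threshold pair of 0.05 and 0.32 followed the study. CPM used TMM-scaled library sizes. DESeq2 1.42.0, other scalings, filters, library code terms, a replicate block and fits without each tumor were alternatives. The pipeline was tested on simulated data. Members named are those that passed in any of 6 comparisons plus 14 listed members (such as Mmp2, Timp3 and Serpinf1), and 1 further listed member is not reported here. Serping1, Serpina3n, Mmp8, Mmp27 and Serpinb8 fall outside this rule and were named after their values were seen. Values in every tumor are given for up to 4 raised and 4 lowered members of a comparison with a mean of at least 50 counts, and for members the results turn on. Up to 3 genes per other list are named, those with the smallest p. Members and lists were chosen with earlier results of these data known. Promoters came from RefSeq (GRCm38.p6, 250 bases before to 50 after the start), with 43 of 57 members matched. Python 3.11.15 and matplotlib 3.10.9 made tables and figures.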

Additional observations from a re-analysis of the deposited data

Results flagged for a closer look

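In 9 of 132 groups of 5 tumors with a named member, 1 tumor stood apart from the rest by Dixon's criterion, which chance meets in about 1 in 20 groups. With vehicle these were tumor 3 for Adamts7 (15.0 CPM, the next 9.12) and Mmp13 (33.1 CPM, the next 22.0), tumor 2 for Serpina3m (2.36 CPM, the next 0.163), tumor 1 for Serpinb2 (42.6 CPM, the next 19.8) and, below the others, tumor 5 for Mmp3 (575 CPM, the next 989.8). With KW6002, tumor 1 was low for Mmp14 (489 CPM, the next 549.6) and high for Serpinh1 (715 CPM, the next 586). With cotreatment, tumor 1 was high for Mmp1b (2.03 CPM, the next 0.881), and tumor 3 had 0 CPM for Serpinb10 (the next 0.220), where 3 counts would be at most 0.108 CPM.

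The effect of KW6002 on Adamts1 differed between tumors with and without cisplatin by 1.14 on the log2 scale (edgeR, adjusted p = 0.0391). Adamts1 was 1.01 above cisplatin alone in cotreated tumors, and -0.13 relative to vehicle in tumors given KW6002 alone.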

How the results depend on the processing

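Of the 61 calls of named members, 61 were kept by DESeq2, 61 by RLE scaling, 60 by upper quartile scaling, 59 with the library code run as a term, 48 without a filter on low counts, 34 within the later codes, 49 when only the groups compared were fitted (9 lost), 13 within the earlier codes (13 lost) and 33 when tested against the fold limit, and over all fits that left out a tumor 1103 were kept and 117 lost. KW6002 alone gave 0 in every setting. Calls were also gained. Timp1 passed with cotreatment against KW6002 with DESeq2 (-0.45, adjusted p = 0.0390). Adamts5 passed with cotreatment against vehicle when only the groups compared were fitted (0.93, adjusted p = 0.0155). The cause of the changes that follow was not tested. Testing against the fold limit left 1 inhibitor for cisplatin, 9 proteases and 3 inhibitors for cotreatment, 1 and 0 against cisplatin, 5 inhibitors against KW6002 and 0 proteases in the interaction, where the shares of all genes raised and lowered were 1.56% and 1.12%, 5.99% and 3.95%, 0.144% and 0.0240%, 5.89% and 4.69%, and 0%. Without a filter these were 2 inhibitors for cisplatin, 4 for cotreatment, 2 proteases against cisplatin and 0 in the interaction, with 2.40% and 1.77%, 6.31% and 4.23%, 0.852% and 0.525%, and 0.0454% and 0.0142% of all genes. Fitting only the groups compared gave 1 protease and 0 inhibitors against cisplatin (0.837% and 0.509% of all genes), where DESeq2 gave 3 inhibitors (2.93% and 2.21%) and no fold limit 2 (3.29% and 3.22%). The later codes gave 0 proteases and 0 inhibitors against cisplatin (1 of 17222 genes), 6 and 3 against KW6002 (5.23% and 4.37%) and 0 in the interaction (0 genes), and the earlier codes 0 proteases against cisplatin (0.994% and 0.627%). Without cisplatin tumors 4 and 5, chosen after seeing the data, inhibitors were 2 against cisplatin (2.21% and 1.21% of all genes) and 14 against KW6002 (13.5% and 10.9%). Leaving out each tumor gave 8 to 11 proteases and 2 to 6 inhibitors for cisplatin, 11 to 14 and 4 to 9 for cotreatment, 2 to 5 and 0 to 2 against cisplatin, 11 to 13 and 7 to 11 against KW6002, and 0 to 2 proteases in the interaction. The shares of all genes in these fits ran from 4.56% to 7.43% raised and 3.46% to 4.81% lowered, 11.7% to 13.9% and 8.10% to 10.6%, 1.07% to 3.36% and 0.634% to 2.67%, 11% to 13.4% and 8.56% to 10.8%, and 0% to 0.834% and 0% to 0.530%.

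The labels tie no replicate number to a shared animal or day, and in no pair of groups did all same-numbered tumors deviate together: correlations ran from -0.392 to 0.391, with 1 to 4 of 5 above 0.1 (4 for cisplatin and cotreatment) and 0 to 2 of 5 tumors closest to their own number. With the replicate number as a block, 57 of the 61 calls were kept. The interaction then held 0 proteases, as it held 0 of all 16665 genes. The calls lost were the interaction of Adamts1 (1.10, adjusted p = 0.0502), Serpinb2 with cotreatment against vehicle (-1.40, adjusted p = 0.0571) and Serpina3m with cotreatment against vehicle (3.10, adjusted p = 0.0648) and KW6002 (adjusted p = 0.0725). Depth of 28371364 to 40965731 counts limits members with few counts, such as Serpinb10, Serpind1 and Serpina3m.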
